A study of Homo sapiens with 6 samples.

Results

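The genes described here encode the numbered proteins of the mitochondrial ribosome. They were taken from a table of RNA-Seq counts as the protein-coding rows whose gene name is MRPL or MRPS followed by a number, which gave 78 of the 58735 rows. Names of this kind mark 51 proteins of the large subunit, 26 of the small subunit, and MRPS36, which is now known as a subunit of the 2-oxoglutarate dehydrogenase complex and was kept apart from both. The counts come from H1155, an established line of neuroendocrine large cell lung cancer, grown untreated in DMEM with 10% FBS. There were 3 libraries labelled WT and 3 labelled GFI1-KO. GFI1 is a zinc finger transcription factor that represses transcription. The GFI1-KO cells were made with CRISPR/Cas9 and pairs of sgRNAs against the promoter region of GFI1, and were grown from single sorted cells as clones. Which clone or clones gave the 3 libraries is not stated in the sources used here, so differences between clones and the effect of the edit cannot be told apart, and the spread between libraries of a group may be only technical.

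Mitochondria carry their own ribosomes, which translate the few membrane proteins that the mitochondrial genome encodes, all of them parts of the respiratory chain or of ATP synthase. The rRNAs of these ribosomes are transcribed inside the organelle. All of their proteins are encoded in the nucleus, made in the cytosol and imported, so the MRPL and MRPS genes, which are scattered over the chromosomes, have to supply matched amounts from many separate promoters. Some of the proteins descend from those of bacterial ribosomes and keep their numbers, and others were added in mitochondria.

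Library totals were 14882914 to 17692882 counts, so that 3 counts, the smallest level read here, corresponded to 0.17 to 0.202 CPM (counts scaled to the size of the library), limits that cover counting error only. The targeted gene, GFI1, showed no loss of reads under the label GFI1-KO. Its counts were 153, 106 and 125 in the libraries labelled WT and 174, 188 and 170 in the others. The log2 fold change was 0.31 (adjusted p = 0.0273), or 0.03 (adjusted p = 0.846) after the correction for GC content described with the members below. Every direction given here therefore refers to the labels. For the deletion in H1155 the paper presents an immunoblot of GFI1, which measures protein, whereas these counts measure RNA. The 10 neuroendocrine markers had a summed level of 2004 to 2044 CPM in WT and 2447 to 2492 CPM in GFI1-KO. The 6 fibroblast markers summed to 190.0 to 195 CPM in WT and 134 to 139 CPM in GFI1-KO, with 1 of them at 0. Members of this list, named after their values were seen, went in opposite directions, with 2, 3 and 2 counts of COL3A1 in WT and 129, 143 and 170 in GFI1-KO, and 136, 128 and 135 of PDGFRB in WT and 17, 15 and 15 in GFI1-KO. The 6 leukocyte markers summed to at most 0.535 CPM in any library, with 1 at 0. Libraries were also compared by the log2 of their counts, scaled to a common library size, plus 1. Across the 11867 genes that averaged 100 counts or more, 2 libraries correlated with an r of 0.994 to 0.997 inside a group. Between groups the r was 0.884 to 0.899.

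Promoter sequences of 69 of the 78 genes were found in a table made from RefSeq (GRCh38.p14), in windows from 250 bases before to 50 bases after the start of each gene. The genes without an entry are MRPL2, MRPL10, MRPL13, MRPL15, MRPL21, MRPL23, MRPL35, MRPS28 and MRPS36. The 250 bases before the start are shown for MRPL24, the gene with the largest increase among those that share no exonic base with another gene, and for MRPS6, the gene with the largest decrease. They lie at chr1:156741089-156741338 on the minus strand and at chr21:34073328-34073577 on the plus strand. RefSeq places these starts inside the genes as the deposited table has them, which begin further upstream, so the printed bases lie before the RefSeq start and within the gene coordinates given below. Capitals mark CG pairs, the sites that can carry DNA methylation.
MRPL24: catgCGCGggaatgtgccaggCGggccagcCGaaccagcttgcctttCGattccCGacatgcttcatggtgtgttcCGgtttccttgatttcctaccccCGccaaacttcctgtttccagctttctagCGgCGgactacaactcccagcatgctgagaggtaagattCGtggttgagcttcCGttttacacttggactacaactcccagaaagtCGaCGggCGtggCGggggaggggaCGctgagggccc
MRPS6: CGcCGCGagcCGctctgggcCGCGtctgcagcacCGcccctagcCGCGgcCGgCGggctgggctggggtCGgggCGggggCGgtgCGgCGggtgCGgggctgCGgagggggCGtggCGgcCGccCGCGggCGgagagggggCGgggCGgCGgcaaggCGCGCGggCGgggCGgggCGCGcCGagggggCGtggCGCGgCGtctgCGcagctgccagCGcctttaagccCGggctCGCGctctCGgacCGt
The stretch before MRPL24 holds 17 CG pairs at a GC content of 58%, and that before MRPS6 holds 46 at 84.8%, the highest GC content of the 69. Over the 69 genes the median GC content of this stretch was 60.8%, against 62.4% over 14896 protein-coding genes. The median was 61.2% for the 37 of them that were called higher in GFI1-KO and 56% for the 15 called lower.

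The same 300-base windows were searched on both strands for short binding motifs of factors known to act on genes for mitochondrial proteins, and for that of GFI1. AAGATGGCG, the core that the factor YY1 binds, was found in 13 of the 69 windows (18.8%) and in 2.83% of the windows of all protein-coding genes. In 12 of its 14 occurrences it read in the direction of the gene, 10 began after the start of the gene, and in 9 the letters ATG inside the motif were an annotated start codon, so that the motif overlapped the first codons of the protein. The windows of 9 of these genes are printed to show where the motif sits, with 10 bases on each side and the motif in capitals.
MRPS10: cgggaccggcAAGATGGCGgcgcggacag
MRPS30: atcgcgggcaAAGATGGCGgcggccaggt
MRPL50: gatctcatcgAAGATGGCGgcgcgatctg
MRPL38: ggccggagggAAGATGGCGgcgccctggt
MRPS18B: ggcgtacgtcAAGATGGCGgcgtctgtat
MRPS18A: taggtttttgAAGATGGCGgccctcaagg
MRPL46: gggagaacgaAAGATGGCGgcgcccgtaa
MRPL42: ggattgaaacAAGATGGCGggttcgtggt
MRPL36: ccccccccgcCGCCATCTTccttcctggc
They lie at chr6:42217834-42217862 (minus strand), chr5:44808950-44808978 (plus), chr9:101398577-101398605 (minus), chr17:75904860-75904888 (minus), chr6:30617853-30617881 (plus), chr6:43687764-43687792 (minus), chr15:88467362-88467390 (minus), chr12:93467512-93467540 (plus) and chr5:1799855-1799883 (minus). In all of these but MRPL42 and MRPL36 the motif holds the annotated start codon, and in MRPL36 it reads against the gene. Of the 13 genes with the motif, 5 were called higher (13.5% of the 37 windows of such genes) and 4 lower (26.7% of 15). Another 3 were not called (18.8% of 16), and MRPS24 was not tested. CCGGAAGT, a motif of the ETS family to which GABPA belongs, was found in 11 windows (15.9%, against 6.36% of all windows). They belonged to 7 genes called higher (18.9% of the windows of that class), 3 called lower (20%) and 1 not called (6.25%). GCGCATGC, the core motif of NRF1, was found in 6 windows (8.7%, against 4.31%). They belonged to 4 genes called higher (10.8%), none called lower and 2 not called (12.5%). AATCNCNGC, which holds the AATC core that GFI1 binds, was found in 5 (7.25%, against 4.55%). They belonged to 2 genes called higher (5.41%), 1 called lower (6.67%) and 2 not called (12.5%). None of these matches is evidence of binding in these cells.

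More mitochondrial ribosomal protein genes were higher than lower in the libraries labelled GFI1-KO. Of the 77 genes that passed the filter on low counts, 41 rose (53.2%) and 17 fell (22.1%) at an adjusted p of at most 0.05 in edgeR, and 19 were not called. Over all 17514 tested genes, 36.5% were called higher and 35.9% lower, so the share of higher calls was above and the share of lower calls was below that of all genes. Over the 13949 tested protein-coding genes these shares were 39.6% and 38.9%. Calls were common in general, with 58 of the 77 members and 12680 of all tested genes called in either direction. In bulk RNA such as this, a change in every cell and a change in the share of cells that express a gene cannot be told apart. Counted without a test, 41 members had normalized counts in GFI1-KO wholly above those in WT and 17 wholly below, where 37.5% and 37% of all tested genes did so. The median log2 fold change of the 77 was 0.19, and that of all tested genes 0.00. Most changes were small. The 77 values ran from -0.92 to 2.51, and only 4 of them reached 1 in size, all positive. Summed over the 78 genes, the level was 3495 ± 58.5 CPM in WT (SD, n = 3) and 3922 ± 53.7 CPM in GFI1-KO (SD, n = 3), a ratio of 1.12, and every library labelled GFI1-KO was above every library labelled WT. The genes took 0.344 to 0.355% of the counts in WT and 0.384 to 0.395% in GFI1-KO.

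**Figure D1:**
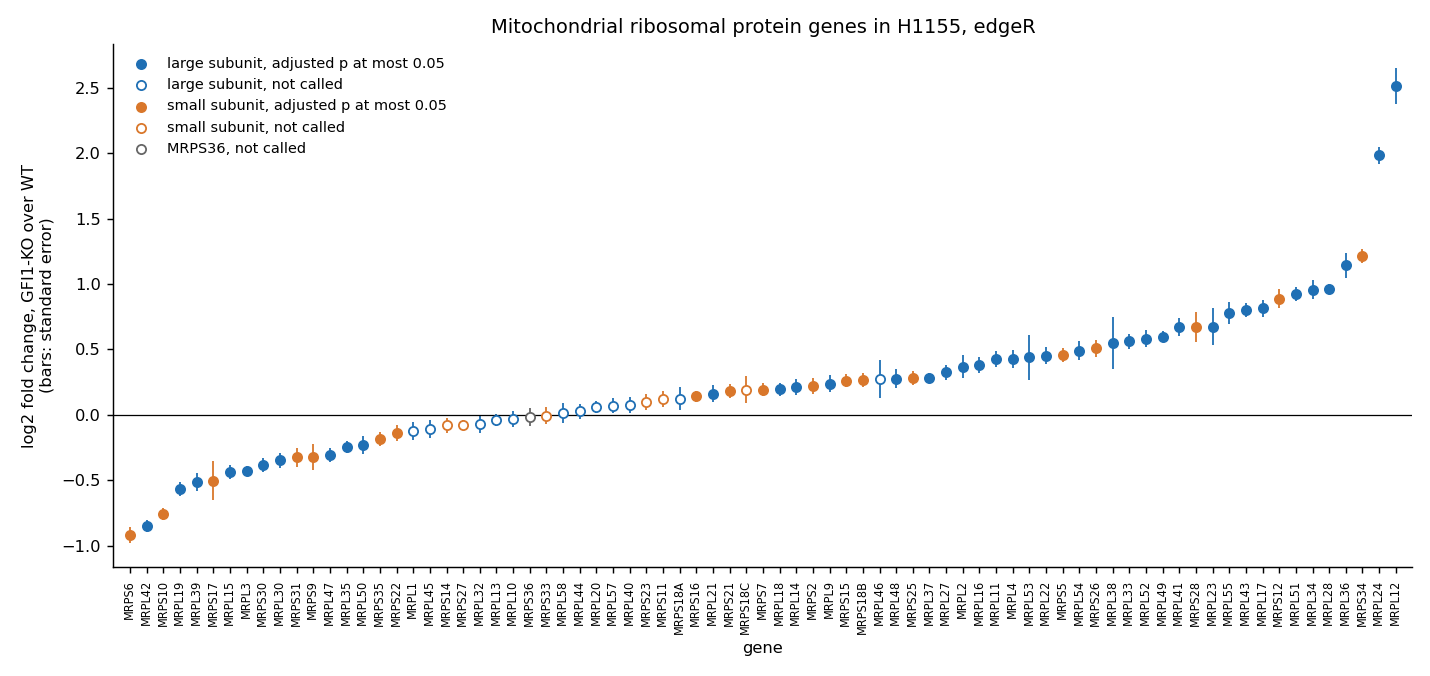
Log2 fold change of GFI1-KO over WT for each of the 77 tested genes in rising order, with its standard error as a bar, filled where the adjusted p was at most 0.05, in blue for the large subunit and orange for the small one. The values form an unbroken slope from -0.92 (MRPS6) to 1.21 (MRPS34), and MRPL24 and MRPL12 stand above it at 1.98 and 2.51.

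The largest increase was that of MRPL12 (ENSG00000262814, chr17:81703357-81707526, plus strand), which encodes the mitochondrial form of the L7/L12 stalk protein, the part of the large subunit that calls translation factors to the ribosome. Its normalized counts, that is counts scaled to a common effective library size, were 44.03, 48.7 and 39.9 in the libraries labelled WT and 278, 249 and 229.6 in those labelled GFI1-KO. The groups lay far apart, with a ratio of 5.7, a log2 fold change of 2.51 (SE 0.14) and an adjusted p of 1.06e-14. These were low counts for a member, and much of the gene is shared. The row of AC139530.2, whose coordinates (chr17:81703371-81720539, plus strand) run past the end of MRPL12, covers 69.5% of the exonic bases of MRPL12 on the same strand and was listed at 0 counts in all 6 libraries. The bases that MRPL12 alone holds are 4 at its start and 304 at chr17:81707214-81707517, in its last exon, of 1009 in all, and 24 of the latter are coding. How reads on shared bases were assigned is not stated in the sources used here, and its part in the MRPL12 values was not tested.

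MRPL24 (ENSG00000143314, chr1:156737303-156741590, minus strand), a protein that binds early during assembly of the large subunit in bacteria, rose by a similar amount with no such overlap. Its normalized counts were 296, 277 and 278 in WT and 1154.9, 1149 and 1059.7 in GFI1-KO, a ratio of 3.95 (log2 fold change 1.98, SE 0.06, adjusted p = 1.81e-19). Each group was tight, and no library of one came near the other. None of its exonic bases and none of its 50-base words is shared with another gene of the table. After MRPL12 and MRPL24 the values dropped to 1.21 and below.

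MRPS34, MRPL36, MRPL28 and MRPL34 made up the rest of the 6 largest increases. MRPS34, a small-subunit protein without a bacterial counterpart, had 699, 796 and 719 normalized counts in WT and 1657, 1806 and 1666 in GFI1-KO (log2 fold change 1.21, SE 0.05, adjusted p = 9.07e-17). MRPL36, a bacterial-type protein of the large subunit, had 183, 179 and 146 in WT and 365, 394 and 364 in GFI1-KO (log2 fold change 1.14, SE 0.10). MRPL28 had 1227, 1197 and 1219.7 in WT and 2332, 2405 and 2354 in GFI1-KO (log2 fold change 0.96, SE 0.04). In all of these the lowest GFI1-KO library was well above the highest WT library. MRPL34 had 353, 423 and 369 in WT and 699, 725 and 794 in GFI1-KO (log2 fold change 0.96, SE 0.07), again without overlap. The adjusted p-values of the last 3 were at most 3.86e-11. Part of the exonic bases of MRPS34 (31.2%, with EME2) and MRPL34 (14.6%, with ABHD8) lies in a gene on the other strand, and whether the counting used strand is not stated in the sources used here.

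The decreases were smaller. MRPS6 (ENSG00000243927, chr21:34073224-34143034, plus strand), a bacterial-type protein of the small subunit whose locus also holds the inositol transporter gene SLC5A3, had 928, 842 and 961 normalized counts in WT and 461, 497 and 487 in GFI1-KO, 1.89 times lower (log2 fold change -0.92, SE 0.06, adjusted p = 6.69e-13). MRPL42 (ENSG00000198015, chr12:93467488-93516213, plus strand), a mitochondria-specific protein of the large subunit, had 2211, 2162 and 2353 in WT and 1277, 1213 and 1243 in GFI1-KO (log2 fold change -0.85, SE 0.04, adjusted p = 1.58e-15). MRPS10, a bacterial-type protein of the head of the small subunit, had 1561, 1524 and 1574 in WT and 922, 886 and 946 in GFI1-KO (log2 fold change -0.76, SE 0.05, adjusted p = 7.67e-14). In each the highest GFI1-KO library lay below the lowest WT library. MRPL19 had 1425, 1420.3 and 1624 in WT and 1050.1, 988 and 979 in GFI1-KO (log2 fold change -0.57, SE 0.05, adjusted p = 3.68e-10), and 21% of its exonic bases lie in other rows. MRPL39, a large-subunit protein related in sequence to threonyl-tRNA synthetases, had 628, 569 and 574 in WT and 409, 415 and 417 in GFI1-KO (log2 fold change -0.51, SE 0.07, adjusted p = 1.46e-07). MRPS17 was the least certain of the 6, at 130.04, 109.6 and 123 in WT and 95.3, 86.2 and 74.3 in GFI1-KO (log2 fold change -0.50, SE 0.15, adjusted p = 0.00354), and it shares 25% of its exonic bases with other rows on the same strand.

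**Figure D2:**
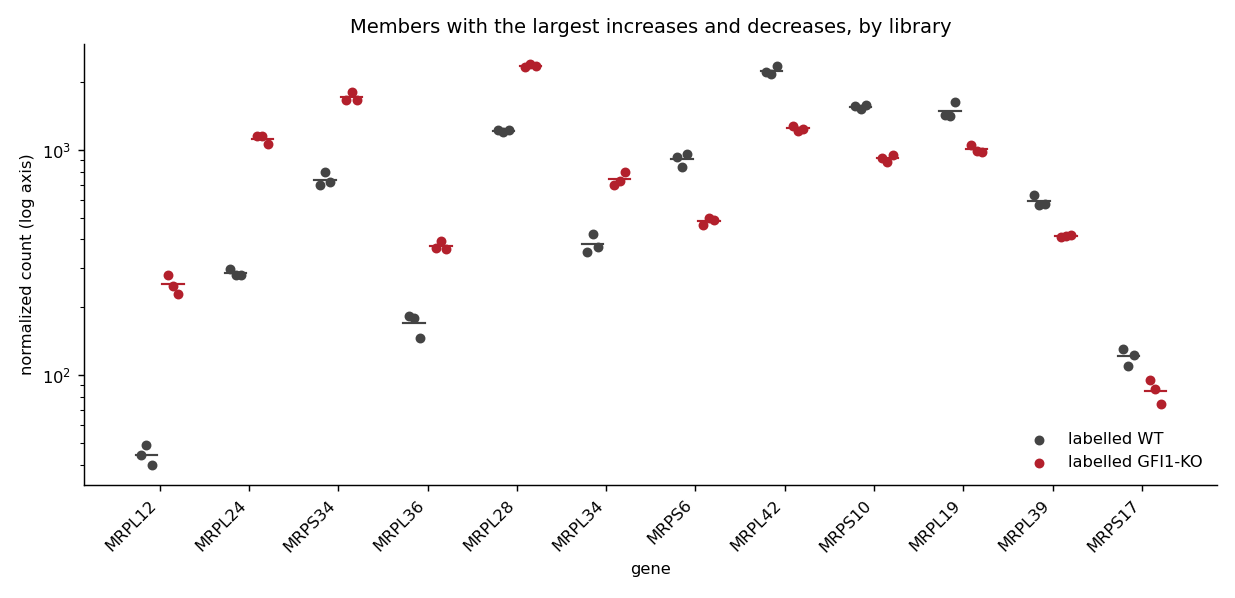
Normalized counts per library (log axis) of the 6 genes with the largest increases, on the left, and the 6 with the largest decreases, on the right. Grey points are libraries labelled WT, red points libraries labelled GFI1-KO and lines the means of 3, and no gene has a library of one group within the range of the other.

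Both subunits held genes of either direction. Of the 51 genes of the large subunit, 29 rose (56.9%) and 10 fell (19.6%), with a median log2 fold change of 0.27. Of the 25 tested genes of the small subunit, 12 rose (48%) and 7 fell (28%), with a median of 0.14. Over all tested genes, 36.5% rose and 35.9% fell. With the correction for GC content given further on, the order turned. The large subunit then had 24 higher (47.1%) and 12 lower (23.5%), with a median of 0.14. The small one had 15 higher (60%) and 5 lower (20%), with a median of 0.18. The corrected shares of all tested genes were 32.9% higher and 28.3% lower. The summed level of the large subunit was 2248 ± 32.5 CPM in WT and 2574 ± 42.5 in GFI1-KO (SD, n = 3 each), a ratio of 1.15. That of the small subunit was 1215 ± 30.4 CPM in WT and 1316 ± 16.5 in GFI1-KO, a ratio of 1.08. Split by origin, the genes named after a bacterial ribosomal protein counted 19 higher (63.3%) and 6 lower (20%) of 30 in the large subunit, with a median of 0.28. In the small subunit they counted 8 higher (53.3%) and 4 lower (26.7%) of 15, with a median of 0.18. The mitochondria-specific ones counted 10 higher (47.6%) and 4 lower (19%) of 21 in the large subunit, with a median of 0.27. In the small subunit they counted 4 higher (40%) and 3 lower (30%) of 10, with a median of 0.04. The correction turned this contrast as well, to 9 higher (42.9%) and 6 lower (28.6%) with a median of 0.01 in the large subunit. The small one then had 7 higher (70%) and 1 lower (10%), with a median of 0.26. The correction left the genes named after a bacterial protein at 15 higher (50%) and 6 lower (20%) in the large subunit, with a median of 0.17. In the small one they were at 8 higher (53.3%) and 4 lower (26.7%), with a median of 0.14. Differences between these classes were not tested. MRPS36 did not pass the test, with 565, 545 and 493 normalized counts in WT and 536, 533 and 518 in GFI1-KO (log2 fold change -0.02).

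Members with a special place in the ribosome did not move as one. MRPS12, the decoding-site protein in whose bacterial homologue mutations give streptomycin resistance, had 366, 327 and 340.1 normalized counts in WT and 606, 639 and 668 in GFI1-KO (log2 fold change 0.89, SE 0.07, adjusted p = 1.29e-11). Every GFI1-KO library was above every WT library. The 3 relatives of bacterial S18 sit in different places. MRPS18C takes the bacterial position in the small subunit, MRPS18B another position there and MRPS18A one in the large subunit. MRPS18B had 788, 739 and 784 in WT and 890.0, 952 and 942 in GFI1-KO and rose (log2 fold change 0.27, adjusted p = 0.000103). MRPS18A had 385, 348 and 316 in WT and 349.7, 430.2 and 363 in GFI1-KO, and its groups overlapped (log2 fold change 0.12, adjusted p = 0.213). MRPS18C had 254, 220.3 and 314 in WT and 311, 279.6 and 312 in GFI1-KO (log2 fold change 0.19, adjusted p = 0.0962), and WT replicate 3 was above all those labelled GFI1-KO. Without that library it was called higher (0.33, adjusted p = 0.00337). Exons of these genes overlap a gene on the other strand, by 50.9% for MRPS18A with RSPH9 and 40.2% for MRPS18C with ABRAXAS1.

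MRPS30, which sits in the large subunit in spite of its name, had 883, 921 and 868 normalized counts in WT and 689.9, 676 and 682 in GFI1-KO and fell (log2 fold change -0.38, SE 0.05, adjusted p = 6.64e-07). MRPL58, a peptidyl-tRNA hydrolase that frees stalled ribosomes and is also built into the large subunit, had 440.3, 382 and 451 in WT and 426, 449 and 410.3 in GFI1-KO. Its groups overlapped, with a log2 fold change of 0.01 (SE 0.08, adjusted p = 0.896). MRPS33, with 577, 522 and 531 in WT and 551, 558 and 515 in GFI1-KO, had the smallest change of all, at -0.01 (SE 0.07, adjusted p = 0.923). The signs of the last pair of values changed under other settings, as did that of MRPS30 with the GC correction.

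The changes of the members went with the base composition of their exons. The GC content of the union of a gene's exons, from GENCODE release 44, had a median of 48.2% over the tested genes. Of the 39 members below it, 11 rose (28.2%) and 16 fell (41%), and of the 38 above it, 30 rose (78.9%) and 1, MRPS17, fell (2.63%). All tested genes showed the same pattern, with 13.6% higher and 58% lower below the median and 59.6% higher and 13.9% lower above it. Below as well as above the median, the share of members called higher was above that of all genes. Across the 77 members, Spearman's rho between log2 fold change and GC content was 0.678, and across 17415 tested genes it was 0.580, values that describe genes and not replicates. MRPL12 and MRPS34 (each with a GC content of 64.6%) and MRPL28 (62.8%) are among the GC-rich members, MRPL24 lies nearer the middle (54%), and MRPL42 (38.4%), MRPL19 (37.9%), MRPS10 (41.5%) and MRPS6 (42.4%) are AT-rich. The groups of libraries and this trend cannot be told apart in the design.

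A fit in which a smooth curve of GC content and gene length was taken out of each library gave similar numbers of calls among the members, in part for other genes. It called 40 members higher (51.9%) and 17 lower (22.1%), and 20 were not called, where 32.9% of all tested genes were called higher and 28.3% lower. The median log2 fold change of members was 0.14 and that of all tested genes 0.02. Only 22 members were higher and 7 lower in both fits. Of the 41 higher without correction, 5 became lower and 14 were no longer called, and of the 17 lower, 6 became higher and 4 were no longer called. Among those not called before, 12 became higher and 5 lower. Below the median GC content, 28 of the 39 members were now higher (71.8%, against 33% of all genes there) and 6 lower, and above it 12 of the 38 were higher (31.6%, against 33%) and 11 lower (28.9%, against 29.1%), so that the higher share of members was above that of all genes only in the AT-rich group. After correction rho between log2 fold change and GC content was -0.244 over the members and 0.00353 over all genes.

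MRPL12 and MRPL24 remained the members with the largest increases, with corrected log2 fold changes of 1.69 (adjusted p = 2.05e-10) and 1.64 (adjusted p = 6.31e-17). The other large increases shrank, to 0.62 for MRPL34, 0.46 for MRPL36, 0.40 for MRPS34, 0.40 for MRPS12 and 0.24 for MRPL28, all still called. Among the decreases, MRPS6 (-0.61), MRPS17 (-0.61), MRPS10 (-0.46), MRPL42 (-0.28) and MRPL39 (-0.28) were still called, and MRPL19 was not (-0.01, adjusted p = 0.843). MRPS30 (0.20, adjusted p = 0.00217) turned from lower to higher. MRPS18A was called lower (-0.43), MRPL58 lower (-0.18, adjusted p = 0.0408), MRPS33 higher (0.33) and MRPS18C higher (0.78), and MRPS18B was no longer called (0.08, adjusted p = 0.172). Chosen after its values were seen, MRPL22, an AT-rich gene (37.9%), had 493, 473 and 533 normalized counts in WT and 643, 727 and 680.4 in GFI1-KO and rose in both fits, by a log2 fold change of 0.45 without and 1.03 with correction, the third largest corrected increase.

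**Figure D3:**
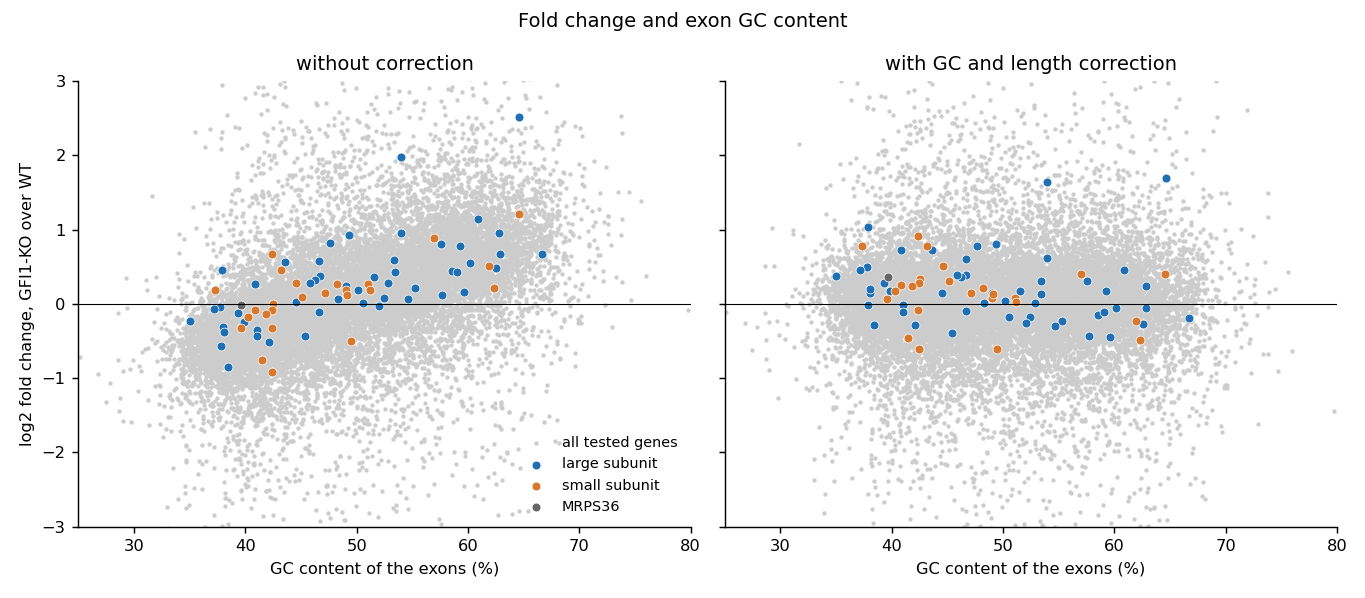
Log2 fold change against the GC content of the exons, in percent, without (left) and with (right) the GC and length correction, for all tested genes in grey and members in blue (large subunit), orange (small subunit) and dark grey (MRPS36). Genes beyond the axis limits are not drawn. The members follow the slope of the grey cloud on the left (rho 0.678 and 0.580), and on the right MRPL12 and MRPL24 still stand above it at 1.69 and 1.64.

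The members also moved with the genes around them. For each, the median log2 fold change of the 10 nearest tested genes on either side of the same chromosome was taken. In 60 of the 77 the member had the sign of this median. The same count was not made for other genes, so it cannot be read as particular to the members. Of the 41 that rose, 32 had a median above 0, and of the 17 that fell, 15 had a median below 0. Spearman's rho between member and neighbours was 0.600 over the 77, and the rho between the GC content of a member and the median log2 fold change of its neighbours was 0.814. After the GC and length correction, rho between the corrected member and its corrected neighbours was 0.0158. MRPL36 rose beside neighbours with a median of -0.01, and MRPS10 fell beside neighbours with a median of 0.00. MRPS28, named after its values were seen, had the neighbours with the lowest median of all and rose. It had 159, 158 and 229 normalized counts in WT and 296, 289 and 285 in GFI1-KO, without overlap (log2 fold change 0.67, SE 0.11, adjusted p = 7.51e-06), where its neighbours had a median of -0.82, and it shares 35.8% of its exonic bases with another row on the same strand.

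**Figure D4:**
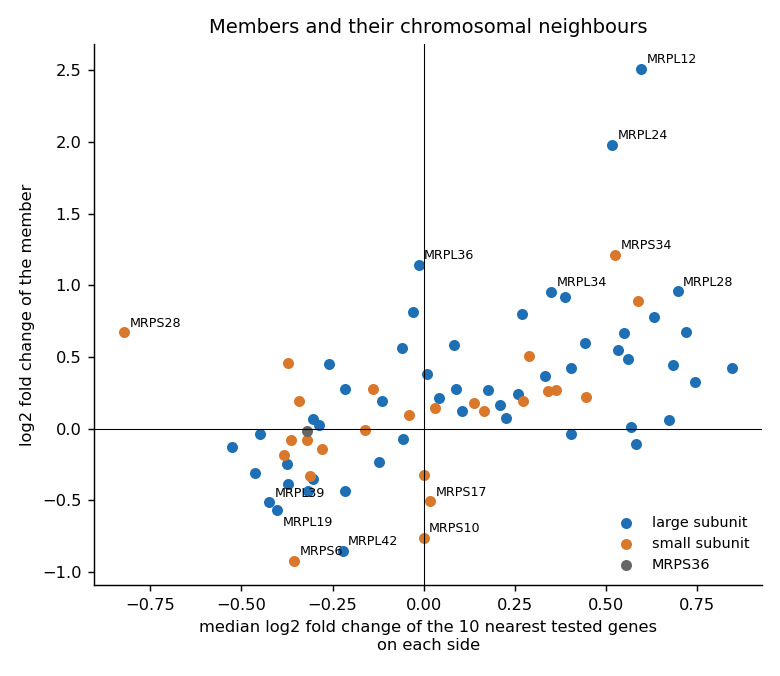
Log2 fold change of each of the 77 members (vertical axis) against the median log2 fold change of the 10 nearest tested genes on each side (horizontal axis), in blue for the large subunit, orange for the small one and dark grey for MRPS36. Of the 77 points, 60 lie in the quadrants of equal sign, and MRPS28, at -0.82 and 0.67, lies at the far left.

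The mean levels of the members ran from 0.137 to 67.5 RPKM. Levels were compared per length, as RPKM (counts scaled by gene length and depth) from the TMM-scaled library and the deposited gene length, which is that of all annotated exons (16393 bases for MRPL42). MRPS34 had the highest mean level, at 40.7 ± 2.81 RPKM in WT and 94.2 ± 4.61 in GFI1-KO (SD, n = 3). MRPL51, a mitochondria-specific protein of the large subunit, came next at 42.2 ± 2.73 and 79.9 ± 5.48, followed by MRPL15, a bacterial-type protein, at 67.05 ± 4.51 and 49.6 ± 1.37. MRPL51 rose (normalized counts 1087, 1009.6 and 1149 in WT and 2017, 2205 and 1930.2 in GFI1-KO, log2 fold change 0.92, adjusted p = 1.27e-14), and MRPL15 fell (1274, 1265 and 1423 in WT and 1003, 976 and 949.6 in GFI1-KO, log2 fold change -0.44, adjusted p = 3.14e-08). Of the exonic bases of MRPL51, 27.6% lie in NCAPD2 on the other strand. In WT alone MRPL15 was above MRPL51 by more than their spread, and in GFI1-KO the order was reversed. In WT, MRPL51 and MRPS34 did not differ beyond their spread.

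At the other end were MRPS24, MRPL46 and MRPL38. MRPS24 did not pass the filter, with counts of 6, 5 and 12 in WT and 2, 3 and 7 in GFI1-KO, or 0.187 ± 0.0905 and 0.0874 ± 0.0573 RPKM. MRPS24 is the mitochondrial form of bacterial S3, a core protein of the small subunit. The row of a readthrough transcript, URGCP-MRPS24, shares 23.2% of its exonic bases on the same strand and had 1 count in all. MRPL46 had 0.92 ± 0.1 RPKM in WT and 1.11 ± 0.122 in GFI1-KO, and was not called (normalized counts 88.1, 96.3 and 109 in WT and 106, 132 and 117 in GFI1-KO, log2 fold change 0.27, adjusted p = 0.0942). With the GC correction it was called higher (0.72). MRPL38 had 0.962 ± 0.312 RPKM in WT and 1.41 ± 0.0196 in GFI1-KO. Its normalized counts spread widely in WT (57.3, 39.9 and 77.7) and little in GFI1-KO (86.7, 84.3 and 85.6), the log2 fold change was 0.55 (SE 0.20, adjusted p = 0.015), and the call was lost without WT replicate 2 (0.34, adjusted p = 0.118) and with the GC correction (-0.06). Of its exonic bases, 41.1% lie in AC087289.3 on the same strand, which had 2 to 7 counts per library. The order of levels was mostly kept between the groups, with a rho of 0.887 over the 77 tested genes, and the log2 fold change did not go with the level (rho 0.0423).

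**Figure D5:**
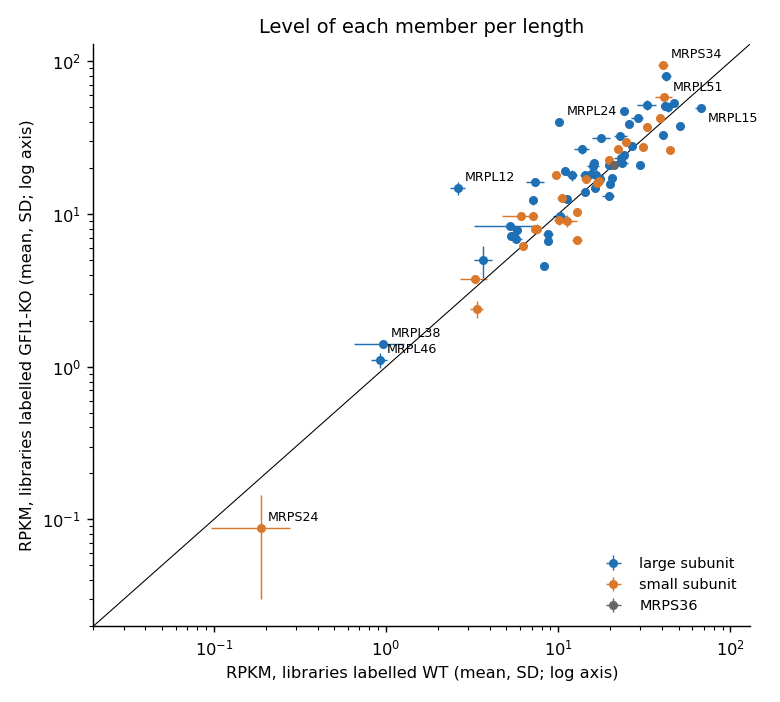
Mean RPKM of the 78 members in the libraries labelled WT (horizontal) and GFI1-KO (vertical), both on log axes, with SD over 3 libraries as bars and the line of equality. MRPL12 and MRPL24 lie farthest above the line, at 2.60 and 14.8 and at 10.1 and 40.0 RPKM, and MRPS24 lies lowest.

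Sequence shared with other rows touched a minority of the members. In 29, more than 10% of the 50-base words of their exons also occur in another gene, and in 27 more than 10% of the exonic bases lie in exons of another row on either strand. For 47 members neither held. Of these 47, 24 rose (51.1%, against 36.5% of all tested genes) and 11 fell (23.4%, against 35.9%). The remaining 12 were not called, and the median log2 fold change of the 47 was 0.16. MRPL53 was the most shared of all, with 93.3% of its words found elsewhere, and is uncertain. The genome holds many processed copies of these genes. The table lists 75 rows of pseudogenes named after a member, of which 50 had no count and 5 had a mean above 3. Together they had 125 to 170 counts per library, at most 0.275% of the counts of the members.

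The other genes of mitochondrial translation had calls in both directions, in shares near those of all tested genes. Of 64 such genes, all tested, 22 rose (34.4%, against 36.5% of all genes), 22 fell (34.4%, against 35.9%) and 20 were not called, with a median log2 fold change of 0.04. Among 5 mitoribosome subunits with other names, 3 rose and 1 fell. AURKAIP1 and GADD45GIP1, in the small and the large subunit, were higher by 1.54 and 0.71 and PTCD3, a small-subunit protein, was lower at -0.51, and of these AURKAIP1 alone stayed called with the GC correction (0.68). CHCHD1, named after its values were seen, a small-subunit protein and the remaining one that rose (0.23, adjusted p = 0.00453), also stayed called (0.38, adjusted p = 2.32e-05). Of 26 assembly factors, 10 rose (38.5%) and 6 fell (23.1%), with a median of 0.04. With the GC correction 9 rose (34.6%, against 32.9% of all tested genes) and 12 fell (46.2%, against 28.3%). The largest changes were those of the rRNA methyltransferase MRM1 (1.32, corrected 0.59) and MPV17L2 (0.79, corrected 0.12 and not called), and in the other direction FASTKD2 (-0.72, corrected -0.17) and RBFA (-0.63, corrected -0.77), which help the rRNAs of the large and small subunit to mature.

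Of 16 translation factors and mRNA-binding partners, 3 rose (18.8%, against 36.5% of all tested genes) and 9 fell (56.2%, against 35.9%). The median was -0.27. With the GC correction 5 rose and 5 fell (31.2% each), where 32.9% of all tested genes rose and 28.3% fell. SLIRP, which holds mitochondrial mRNAs stable, had 1527, 1631 and 1484 normalized counts in WT and 717, 751 and 721 in GFI1-KO, the largest decrease of all 64 (log2 fold change -1.08, adjusted p = 3.12e-16, corrected -1.05). The elongation factor relative GUF1 was lower at -0.92 (corrected -0.46), and TACO1, an activator of COX1 translation, and C12orf65, a rescue factor, were higher at 0.58 and 0.28 (corrected 0.28 and 0.28). Of 17 mitochondrial aminoacyl-tRNA synthetases, 6 rose and 6 fell (35.3% each), near the shares of all tested genes. With the GC correction 3 rose (17.6%) and 4 fell (23.5%), below the corrected shares of all tested genes. SARS2 (1.09) and VARS2 (0.62) had the largest increases, and IARS2 (-0.60) was among those that fell. Of these only SARS2 was no longer called after correction (0.48, adjusted p = 0.104).

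Both rRNAs of the mitochondrial ribosome rose. MT-RNR1, the rRNA of the small subunit (chrMT:648-1601), had 790.5, 827 and 694 normalized counts in WT and 1816, 1873 and 1755 in GFI1-KO (log2 fold change 1.24, SE 0.05, adjusted p = 6.88e-17, corrected 1.26). MT-RNR2, that of the large subunit (chrMT:1671-3229), had 6178, 6014 and 5355 in WT and 11081, 11400.1 and 11078 in GFI1-KO (log2 fold change 0.94, SE 0.04, adjusted p = 4.1e-17, corrected 1.14). Together they were 1.96 times as high, where the summed MRPL and MRPS genes were 1.12 times as high. The libraries were made from RNA captured by its poly-A tail, so the share captured and the amount in the cell cannot be told apart. Of the 13 protein-coding genes of the mitochondrial genome, which these ribosomes translate, 7 rose (53.8%) and 5 fell (38.5%), with a median of 0.19. Of all tested genes, 36.5% rose and 35.9% fell. In 5 of the 13 the normalized counts of the groups overlapped, while in 6 those in GFI1-KO lay wholly above WT and in 2 wholly below. Over all tested genes, 37.5% lay wholly above and 37% wholly below. With the GC correction 7 of the 13 were higher (53.8%, against 32.9% of all tested genes) and 3 lower (23.1%, against 28.3%). The summed level of the 13 was 18835 ± 3066 CPM in WT and 19608 ± 197 in GFI1-KO (SD, n = 3 each), a difference within the spread of the WT libraries. Single genes moved further in both directions. Named after their values were seen, MT-ATP8 fell (log2 fold change -2.52, corrected -2.38), and MT-ND5 (1.02, corrected 1.12) and MT-ND6 (0.99, corrected 1.11) rose.

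Of 9 factors known to drive nuclear genes for mitochondrial proteins, 2 rose (22.2%, against 36.5% of all tested genes) and 4 fell (44.4%, against 35.9%), and with the GC correction none rose and 1 fell. Of the factors whose motifs were searched, NRF1 was not called (log2 fold change -0.04, adjusted p = 0.642), GABPA was lower (-0.61, corrected -0.06 and not called) and YY1 was lower by little (-0.14, corrected -0.06 and not called). Of 5 genes of mitochondrial transcription, 1 rose (20%) and 3 fell (60%), and with the GC correction none of these calls was kept. POLRMT turned from higher (0.42) to lower (-0.31, adjusted p = 5.74e-06). TFAM (0.01), TFB2M (-0.01) and MTERF1 (0.14) were no longer called, and TEFM was called higher (0.46). The cytosolic ribosomal protein genes, which encode the ribosomes that make the MRPL and MRPS proteins, had more higher than lower calls as well. Of 81 tested, 56 rose (69.1%) and 14 fell (17.3%), with a median log2 fold change of 0.34, and with the GC correction 51 rose and 17 fell.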

How the data were processed

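RNA from H1155 cells was measured in 3 libraries labelled WT and 3 labelled GFI1-KO. Per the paper's methods, mRNA was selected with poly-T beads, sequenced on a NovaSeq instrument, checked with FastQC, aligned to GRCh38/hg38 with Hisat2 and counted with featureCounts, whereas the submitters' processing notes name Bowtie2 and HTSeq with hg38. The annotation, strand setting and rule for reads on several genes are not given in the sources used here. The authors deposited raw counts per gene. They also deposited other values from their annotation, of which the gene length and the coordinates were used.

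Counts were tested with edgeR 4.0.16 in R 4.3.3 (TMM factors, filterByExpr, quasi-likelihood F test, Benjamini-Hochberg over all 17514 tested genes, adjusted p of at most 0.05, no fold minimum). The SE was taken as |log2 fold change| over the root of F. An exact permutation test of 3 against 3 cannot go below 0.1 and was not used. Exon GC content came from GENCODE release 44 on GRCh38, which held 58207 of the 58735 identifiers. For the correction, natural splines with 5 degrees of freedom in GC content and log length were fitted per library to genes of 10 counts or more on average, with a pseudocount of 0.5. Alternatives were DESeq2 1.42.0, limma-voom (limma 3.58.1), other scaling factors and filters, the replicate number as a block, each library left out, and an adjusted p of at most 0.01. The steps were tested on simulated counts. Plots were made in Python 3.11.15 (matplotlib 3.10.9, pandas 2.3.3).

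The members and lists were chosen with earlier results of these data known. Named members were the 6 largest increases and 6 largest decreases among called members that averaged 100 counts or more and whose groups did not overlap, the 3 highest and 3 lowest by mean RPKM, the 2 with the smallest change, members with a special role, any that failed the filter, and in each other list the 2 with the largest change in each direction, with 1 exception that is not reported here. Markers of neuroendocrine cells, fibroblasts and leukocytes were summed as a check of the samples.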

Additional observations from a re-analysis of the deposited data

How the results depend on the processing

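The counts of members called held under other tools, scaling factors and filters. Of the 58 calls, 54 were kept with DESeq2, 57 or 58 with limma-voom, 3 other scalings, no filter or at least 10 counts in every library, and 55 to 57 with each library left out, and none of these reversed a call. With the GC and length correction 29 were kept and 17 changed sign, alone and together with the replicate block. When the members with more than 10% shared 50-base words were left out, 26 were called higher and 11 lower, and 26 were higher without those with more than 10% shared exonic bases, an alternative chosen after seeing the data. Both leave fewer members to call. The median log2 fold change of members was 0.15 with upper-quartile factors and 0.18 with library size alone.

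The higher value of GFI1 in the libraries labelled GFI1-KO was not called with upper-quartile factors (0.27), DESeq2 (0.31), the GC correction (0.03), the same with the block (0.04) or with the stricter threshold of 0.01 (0.31). It lay between 0.21 and 0.43 with 1 library left out, and the call was lost without WT replicate 2, WT replicate 3 or GFI1-KO replicate 2. Signs turned for MRPL38 (-0.06, and -0.04 with the block), MRPS18A (-0.43 in both) and MRPS30 (0.20 in both) with the GC correction, where MRPS33 was at 0.33 and MRPL58 at -0.18 in both. MRPS33 was at 0.00 without a filter and between -0.04 and 0.03 with 1 library left out, and MRPL58 was at -0.03 with upper-quartile factors, -0.00 with library size alone and between -0.06 and 0.05 with 1 library left out. Apart from the construction of the subsets, the cause was not tested.

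The replicate numbers did not pair the libraries. Deviations from the group mean of same-numbered libraries correlated at -0.00355, 0.0166 and 0.0235 over the 11867 genes that averaged 100 counts or more. With the replicate block, 41 members were higher and 17 lower and 58 of 58 calls were kept. Low counts limit MRPS24, which did not pass the filter, and members under 100 mean counts such as MRPL38. The cause of these low counts was not tested.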

Other observations

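The members lie on 21 chromosomes. Some of these held members of 1 direction only, and the chromosomes named here were not set in advance. Of the 3 members on chromosome 8, 1 was called higher, 1 was called lower and 1 was not called. All 4 members on chromosome 19 were called higher, where 55.1% of the 1217 tested genes of that chromosome were, and both members on chromosome 16 were higher, where 50.2% of 839 genes were. With the GC correction, 2 of the 4 on chromosome 19 were called higher and 1 lower, where 30.2% of its genes were higher. Both on chromosome 16 stayed higher, where 32.7% of its genes were higher. Both members on chromosome 21, MRPS6 and MRPL39, were called lower with and without the correction, where 41.2% of its 204 tested genes were lower without and 37.3% with it.

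Among the pseudogene rows, MRPS31P4 had 21, 17 and 18 counts in WT and 48, 25 and 44 in GFI1-KO (log2 fold change 0.90, adjusted p = 0.00805), and a log2 fold change of 0.99 with the GC correction (adjusted p = 0.00529). Its parent gene MRPS31 was called lower (-0.33), a call that was lost with the correction (0.07).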
